A study of Homo sapiens with 6 samples.

Results

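Fatty acid oxidation genes of mitochondria and peroxisomes were followed in HT29 cells, a human colorectal adenocarcinoma line, after knockdown of FITM2. The members are 37 genes listed by their biochemical role and found by gene symbol among the 58978 genes of the count table. They comprise 3 PPAR receptors, 3 acyl-CoA synthetases, 2 carnitine palmitoyltransferases, 5 acyl-CoA dehydrogenases, 5 enzymes of the later steps of the mitochondrial spiral, 3 auxiliary enzymes for unsaturated chains, 3 genes of the electron transfer flavoprotein system, 5 genes of peroxisomal oxidation and 8 peroxins. Enough reads for a test were present for 36 of them. ECI2, a peroxisomal enoyl-CoA isomerase, had 3 to 8 reads per library and was not tested.

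RNA sequencing was done on bulk HT29 cells grown in McCoy's 5A medium with 10% fetal bovine serum, penicillin and streptomycin. The shCTRL group (3 libraries) has the genotype WT and the shFITM2 group (3 libraries) the genotype FITM2 knockdown, and all 6 libraries carry the treatment label untreated. By their names both groups express a short hairpin RNA, a control one in shCTRL and one against FITM2 in shFITM2. The labels do not say how many FITM2 hairpins were used, how long the knockdown lasted, or whether cells were cloned or cultured separately. The p-values therefore reflect how much these 6 libraries vary, and that variation may be technical. FITM2 encodes a membrane protein of the endoplasmic reticulum that acts in lipid droplet formation. In bulk RNA, fewer cells of a type and less RNA per cell cannot be told apart.

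Long-chain fatty acids are joined to coenzyme A by acyl-CoA synthetases, and CPT1A and CPT2 carry them as carnitine esters into the mitochondrial matrix. There each turn of the oxidation spiral runs through an acyl-CoA dehydrogenase, an enoyl-CoA hydratase, a hydroxyacyl-CoA dehydrogenase and a thiolase, and the electron transfer flavoprotein passes the first electrons of the turn to the respiratory chain. Peroxisomes shorten very long and branched chains by a parallel route that begins with an oxidase, and peroxins build the organelle and import its enzymes. PPAR receptors are nuclear receptors for fatty acids that control many of these genes. Colonocytes are known for their use of fatty acids, above all short-chain ones, as fuel.

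The libraries held 16964075 to 18855731 reads assigned to genes. FITM2 itself stood at 13.3, 10.6 and 10.4 CPM (reads of a gene scaled to a common library total, with TMM factors) in the shCTRL libraries and at 4.83, 5.98 and 4.95 in the shFITM2 libraries. The groups did not overlap, the knockdown libraries held 46.1% of the control level, and the log2 fold change was -1.12 ± 0.16 (SE; edgeR quasi-likelihood test, adjusted p = 0.000242). An exact two-sided permutation test of its log2 CPM gave p = 0.1, the smallest that 3 against 3 libraries can give. Of the colon epithelial markers, all 10 were tested, and their summed level was 10110 to 12220 CPM in shCTRL and 13870 to 14650 in shFITM2. KRT8 alone stood at 5530 to 6932 and 8088 to 8659 CPM. In the edgeR test 7 of the 10 were called higher and 1 lower, beside 24.2% and 24.5% of all tested genes. CDX1 and CDX2, transcription factors of the intestinal lineage, reached at most 1.14 and 1.96 CPM. Fibroblast markers summed to 1.06 to 2.82 CPM in shCTRL and 1.26 to 1.53 in shFITM2, with COL1A2 and PDGFRB at 0 reads. Endothelial markers summed to 0.795 to 1.41 and 0.767 to 1.21 CPM, and immune markers to 9.25 to 12.1 and 9.73 to 13.2. Of 5 markers of fat and liver cells, ADIPOQ, LEP, ALB and APOA2 were at 0. The remaining one, PLIN1, stood at 0.742, 0.649 and 0.763 CPM in shCTRL and at 0.878, 1.09 and 1.83 in shFITM2. It was tested and not called.

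Across all genes, the difference between the groups followed the GC content of the transcripts. The median log2 fold change was -0.47 in the tenth of genes with the lowest GC content (27.9% to 38.5%) and 0.70 in the tenth with the highest (61.4% to 83.9%), and the Spearman correlation between fold change and GC content was 0.74 over 14635 genes. Per 10 points of GC content, log2 expression relative to the mean of all libraries changed by -0.27, -0.33 and -0.06 in the shCTRL libraries and by 0.26, 0.23 and 0.18 in the shFITM2 libraries. All 6 slopes took the sign of their group, and the third shCTRL library lay nearest to 0. Among the 36 tested members the same correlation was 0.81, given as a description, since genes share libraries and base composition. Members called higher had transcripts of 48.8% to 64.6% GC, and members called lower had 37.4% to 45.6%, with no overlap. Over all genes these ranges did overlap, at 31.8% to 83.9% (median 58.5%) for higher and 28.6% to 63.7% (median 40.9%) for lower. Whether this trend arose in the cells or in library preparation cannot be told apart from the group contrast. Each tested member was therefore tested in 3 fits, and the values of the third are given for some members only. The group fit had group as its only term. In a GC-adjusted fit, each library's trend with the GC content of a gene's longest coding transcript was removed. In a principal-transcript fit, the GC content of the annotated principal transcript was used instead. The last was chosen after the data were seen, because for a few members the longest transcript differs much from the principal one. For many others both choices are the same transcript, and the adjusted fits are then no separate checks of each other. The adjustment also removes any change in the cells that follows GC content.

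**Figure D1:**
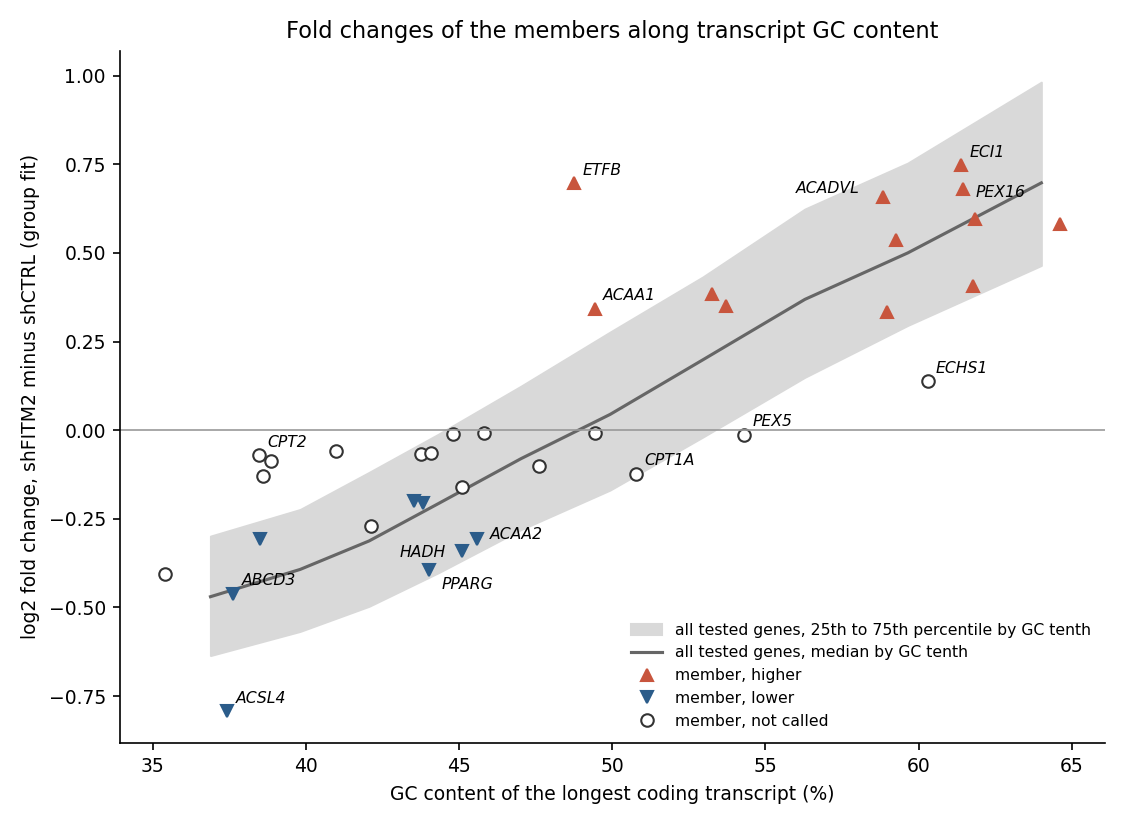
log2 fold change (shFITM2 minus shCTRL, group fit) against the GC percent of the longest coding transcript, for all tested genes (grey) and the 36 tested members (coloured by their call). The members lie along the trend of all genes, with a Spearman correlation of 0.81 against 0.74, and members called higher lie to the right of those called lower.

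In the group fit, 12 of 36 tested members were called higher in shFITM2 and 8 lower, at an adjusted p under 0.05 in the quasi-likelihood test. Of all 14809 tested genes, 48.7% were called, 24.2% higher and 24.5% lower, beside 33.3% and 22.2% of the members. The members' median log2 fold change was -0.06, against -0.0002 over all genes. In the GC-adjusted fit 5 members were called higher and 8 lower, where 29.5% of 14635 genes were called (12.2% higher and 17.3% lower). In the principal-transcript fit, which called 29.2% of genes, 3 members were called higher (ACSL5, ACADM and ACAD9) and 7 lower. The called shares of the members were thus near those of all genes, and members moved in both directions. The third shCTRL library stood apart from its group, at -10.7 on the first principal component against -38.8 and -49.3, with the shFITM2 libraries at 28.7 to 36.4. Without it, 13 members were called higher and 11 lower in the group fit, and 7 and 9 in the GC-adjusted fit. Those fits called 9008 and 5643 of all genes in either direction, against 7205 and 4315 with all libraries. Leaving out the second shFITM2 library gave 5 lower members in the group fit, which then called 5482 genes. In the GC-adjusted fit the number of lower members was 4 without the first shCTRL library (3328 genes called). It was 5, 4 and 3 without the first, the second and the third shFITM2 library (2889, 2983 and 3133 genes called). The calls went the same way in the group and GC-adjusted fits for 6 members, ETFB and ACAA1 higher and PPARG, ACSL4, HADH and ACAA2 lower, where 18.4% of all genes were so called. With the principal transcript, the 4 lower members remained called and the 2 higher ones did not. For ACSL4 and ACAA2 this transcript is also the longest one, and for PPARG its GC content is nearly the same (43.95% against 44.01%). For these genes the principal-transcript fit is no separate check. GC content moved from 45.1% to 48.0% for HADH, from 48.8% to 62% for ETFB and from 49.4% to 58.5% for ACAA1. Of all 14635 genes, 1470 were called lower and 1159 higher in both the principal-transcript and the group fit.

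**Figure D2:**
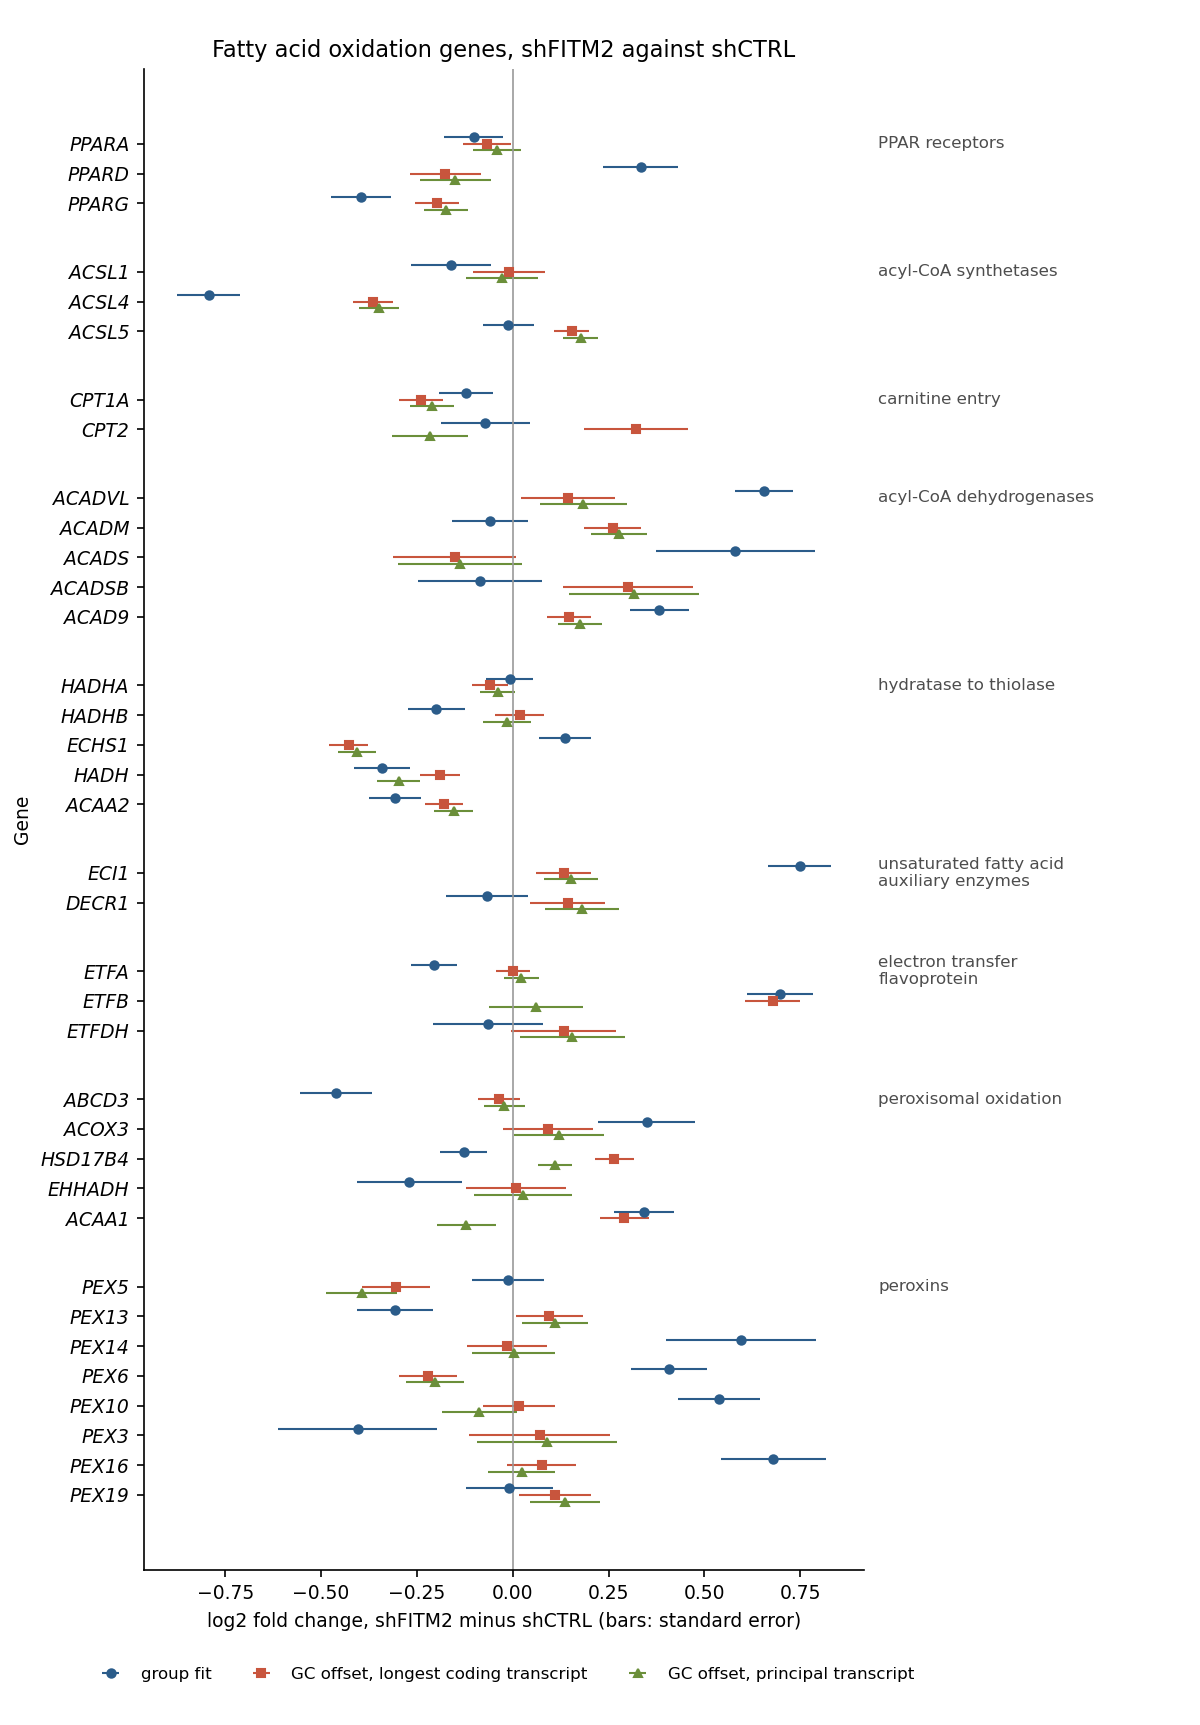
log2 fold change with its standard error for the 36 tested members, ordered by role, in the group fit (blue circles), the GC-adjusted fit (red squares) and the principal-transcript fit (green triangles). PPARG, ACSL4, HADH and ACAA2 lie left of 0 in all 3 fits, while ETFB and ACAA1 lie right of 0 in the first 2 and at 0.06 and -0.12 in the last.

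Promoter sequence is shown for members that were lower in all 3 fits, from the RefSeq windows that reach 250 bases before each start (GRCh38.p14). Of several windows of a gene, as for PPARG and HADH, the one with its start nearest the gene's 5′ end in the count table was taken. The sequence is restricted to bases outside every annotated exon. The lines below give PPARG at chr3:12287118-12287367 on the plus strand, ACSL4 at chrX:109733404-109733507 on the minus strand and HADH at chr4:107989639-107989713 on the plus strand, each written 5′ to 3′ on the gene's strand. The window of ACAA2 lies wholly in annotated exons and is not printed. Capitals mark AGGTCA, the half-site read by nuclear receptors, and GGGCGG, the GC box, on either strand.
PPARG: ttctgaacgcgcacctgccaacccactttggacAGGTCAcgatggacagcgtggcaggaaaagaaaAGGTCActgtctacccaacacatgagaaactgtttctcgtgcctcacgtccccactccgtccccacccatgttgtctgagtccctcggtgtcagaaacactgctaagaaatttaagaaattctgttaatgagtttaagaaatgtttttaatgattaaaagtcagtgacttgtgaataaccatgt
ACSL4: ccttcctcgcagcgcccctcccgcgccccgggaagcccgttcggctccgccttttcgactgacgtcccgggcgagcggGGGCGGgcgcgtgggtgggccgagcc
HADH: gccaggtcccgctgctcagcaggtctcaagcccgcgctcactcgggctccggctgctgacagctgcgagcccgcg
The PPARG stretch holds AGGTCA at 217 and 184 bases before the start, and the ACSL4 stretch holds 1 GC box at 172 bases before it. The HADH stretch of 75 bases holds neither, but the whole HADH window holds GC boxes at 109 and 44 bases before the start. The whole ACSL4 window holds 3 GC boxes, the other ones at 94 and 90 bases before the start. Other PPARG windows hold AGGTCA 24 or 14 bases before their own starts, or not at all. Which start is used in HT29 cells was not examined. The direct repeat of AGGTCA with 1 base of any kind between the copies is the arrangement that PPAR dimers bind. Its exact letters were searched on both strands. They are in 0 of 52 member windows of 300 bases and in 8 of 35116 windows of all genes (0.0228%). At so low a share, 52 windows cannot show whether members lack the repeat. Looser matches and bases outside the windows were not searched. AGGTCA, which that repeat contains, is in 4 of 52 member windows, from PPARG and ACSL5, and in 13.8% of all windows. GGGCGG is in 34 of 52 member windows and in 45.0% of all. Windows were found for 32 of the 37 members, and several genes have more than 1, so windows are not independent. The median GC content was 65% in member windows and 58.7% in all.

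In the group fit PPARG was called lower, PPARD higher and PPARA in neither direction. PPARG (ENSG00000132170, chr3:12287368-12434356), the family member best known from fat cells and also abundant in colon epithelium, stood at 169.9, 148 and 144 CPM in shCTRL and at 113, 118 and 120.3 in shFITM2. Every knockdown library was below every control. The log2 fold change was -0.40 ± 0.08 (SE; edgeR, adjusted p = 0.00163) in the group fit, and -0.20 ± 0.06 (adjusted p = 0.0164) after GC adjustment, where the levels were 156, 135 and 139 against 123, 126 and 127. The principal-transcript fit gave -0.17 (adjusted p = 0.0328). The group fit kept PPARG called lower in all 6 fits that left out 1 library. The GC-adjusted call was lost in 4 of those 6, without the first shCTRL library or without any 1 of the shFITM2 libraries, with an adjusted p of up to 0.103. PPARA, the receptor that drives oxidation in liver, stood at 77.2, 86.1 and 77.6 CPM in shCTRL and 78.4, 71.5 and 74.4 in shFITM2, with overlapping groups and no call in any fit (adjusted p = 0.294 in the group fit). PPARD, the most widely expressed family member, stood at 27.6, 26.5 and 27.3 CPM against 38.0, 31.0 and 33.6. It was called higher in the group fit (log2 fold change 0.33 ± 0.10, edgeR, adjusted p = 0.0143), but its log2 fold change was -0.18 after GC adjustment with no call (adjusted p = 0.177), and the group fit call was lost without the first shFITM2 library (adjusted p = 0.0951).

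Among the acyl-CoA synthetases, ACSL4 was lower in every fit. ACSL4 (ENSG00000068366, chrX:109624244-109733403) activates arachidonic acid and other polyunsaturated chains and is known for its part in ferroptosis, a cell death by lipid peroxidation. It stood at 125, 136.0 and 115 CPM in shCTRL and at 71.0, 68.5 and 77.2 in shFITM2, and the lowest control library was far above the highest knockdown library. The log2 fold change of -0.79 ± 0.08 (SE; edgeR, adjusted p = 5.99e-05) was the lowest of all tested members. After GC adjustment the levels were 106, 109.5 and 107 against 85.3, 79.6 and 86.4, a change of -0.36 ± 0.05 (adjusted p = 0.000118). The principal transcript gave -0.35, and leaving out any 1 library kept the call in both the group and the GC-adjusted fit. ACSL5, a synthetase of the outer mitochondrial membrane and the endoplasmic reticulum that is abundant in intestine, stood at 307, 306 and 275 CPM against 299, 293 and 289. Its groups overlapped and the group fit gave a log2 fold change of -0.01 with no call, while the GC-adjusted value of 0.15 was called higher (adjusted p = 0.0194), a call lost without the first or the second shFITM2 library (adjusted p of up to 0.108). The principal-transcript fit, which used the same transcript for ACSL5, also called it higher (0.18, edgeR, adjusted p = 0.00791). ACSL1, the main synthetase of fat, heart and liver, stood at 25.9 to 29.8 CPM in shCTRL and 22.9 to 27.7 in shFITM2 and was called in no fit. The difference between ACSL4 and the other synthetases was not tested.

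Neither carnitine palmitoyltransferase was called in the group fit, and CPT1A was called lower after GC adjustment. CPT1A (ENSG00000110090, chr11:68754620-68844410), the malonyl-CoA-sensitive step that controls entry into mitochondria, stood at 81.9, 80.2 and 79.3 CPM in shCTRL and at 74.7, 76.3 and 70.7 in shFITM2. All 3 knockdown libraries were below all 3 controls, and the group fit gave -0.12 ± 0.07 (adjusted p = 0.169), which was not called. After GC adjustment the levels were 85.4, 85.4 and 80.3 against 71.2, 73.5 and 68.5, and CPT1A was called lower at -0.24 ± 0.06 (edgeR, adjusted p = 0.00522), with -0.21 (adjusted p = 0.011) in the principal-transcript fit. That GC-adjusted call held in all 6 fits that left out 1 library. CPT2, which releases acyl-CoA on the matrix side, stood at 28.9, 22.1 and 28.9 CPM against 25.6, 26.5 and 23.9, with overlapping groups. Its adjusted value turned from 0.32 with the longest transcript (38.5% GC) to -0.22 with the principal transcript (52% GC), and no fit called it.

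Of the 5 acyl-CoA dehydrogenases, the group fit called 3 higher and none lower, and the GC-adjusted fit called 1 other member of the class. These few calls are given as descriptions, beside 24.2% of all genes called higher in the group fit and 12.2% in the GC-adjusted fit. ACADVL (ENSG00000072778, chr17:7217125-7225273), which opens the spiral for long chains at the inner mitochondrial membrane, stood at 142, 145 and 126 CPM in shCTRL and at 224, 223 and 204 in shFITM2. The groups were far apart, and the group fit gave 0.66 ± 0.08 (SE; edgeR, adjusted p = 8.9e-05). After GC adjustment the levels were 175, 187 and 133 against 183, 186 and 177, which overlap, and the change was 0.14 ± 0.12 (adjusted p = 0.445). The third shCTRL library was the one that lay apart on the adjusted scale. ACAD9, a related dehydrogenase that also assembles respiratory complex I, stood at 64.2, 65.2 and 69.3 CPM against 91.1, 87.0 and 80.9. It was called higher in the group fit (log2 fold change 0.38, adjusted p = 0.00174) and with the principal transcript (0.18, adjusted p = 0.0326), and had an adjusted p of 0.0679 in the GC-adjusted fit. ACADM, for medium chains, stood at 42.8, 45.2 and 37.3 CPM against 37.9, 38.9 and 43.6, with overlapping groups and no call in the group fit. Its GC-adjusted change of 0.26 was called higher (adjusted p = 0.014), a call lost without the third shFITM2 library (adjusted p = 0.0855). The principal-transcript fit, which used the same transcript for ACADM, also called it higher (0.28, edgeR, adjusted p = 0.00941). ACADS, for short chains, had only 3.89 to 7.57 CPM in shCTRL and 8.29 to 9.32 in shFITM2, and its call in the group fit was lost without any 1 library except the third shCTRL library (adjusted p of up to 0.118). ACADSB, for short branched chains, was at 4.48 to 5.41 CPM in all libraries and was called in no fit.

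**Figure D3:**
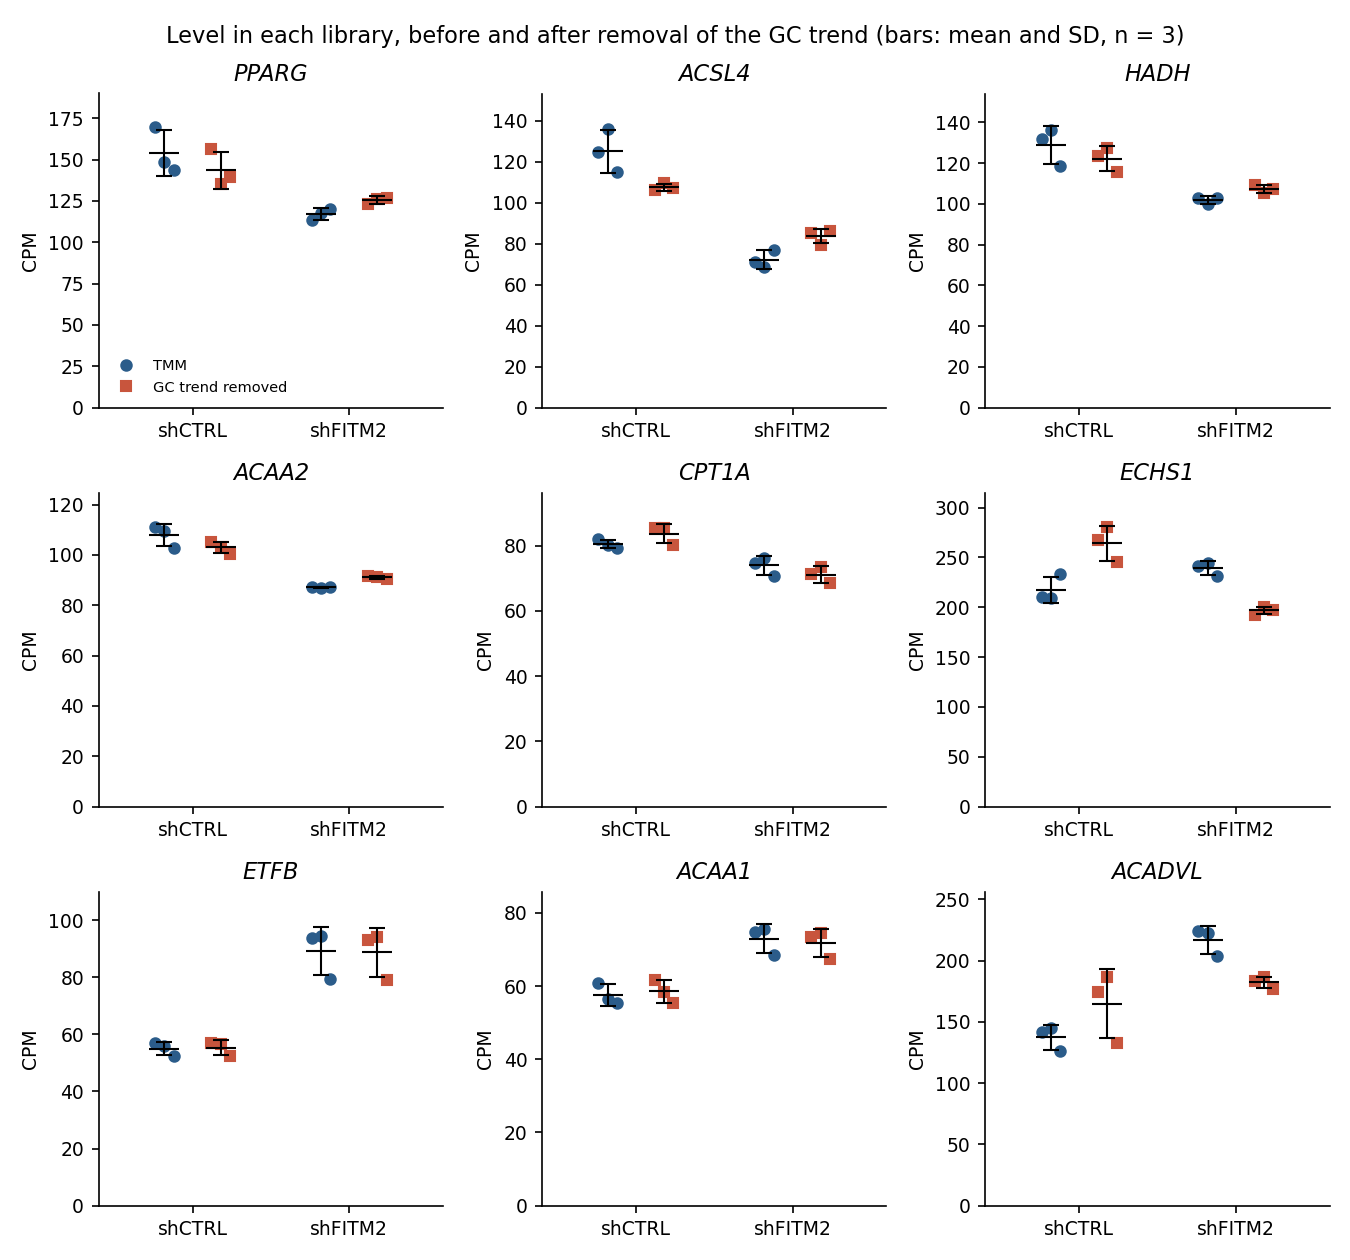
CPM in each of the 3 shCTRL and 3 shFITM2 libraries for 9 members, before (blue circles) and after (red squares) removal of the GC trend of the longest coding transcript, with bars for the group mean and SD. PPARG, ACSL4, HADH, ACAA2 and CPT1A lie lower in shFITM2 on both scales, ETFB and ACAA1 higher on both, while for ECHS1 and ACADVL the picture depends on the scale.

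Of the 5 genes for the steps from hydratase to thiolase, the group fit called HADH, ACAA2 and HADHB lower and the GC-adjusted fit HADH, ACAA2 and ECHS1, so that HADH and ACAA2 were lower in both. None was called higher. Of all genes, 24.5% were called lower in the group fit and 17.3% in the GC-adjusted fit. HADH (ENSG00000138796, chr4:107989714-108035175), the hydroxyacyl-CoA dehydrogenase for medium and short chains, stood at 132, 136 and 119 CPM in shCTRL and at 103, 99.8 and 103.0 in shFITM2. The groups did not overlap, with a log2 fold change of -0.34 ± 0.07 (SE; edgeR, adjusted p = 0.00281). After GC adjustment it was -0.19 ± 0.05 (adjusted p = 0.0124), with the principal transcript -0.30 (adjusted p = 0.000899). Its GC-adjusted call was lost without the second or the third shFITM2 library, with an adjusted p of up to 0.0752.

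ACAA2 (ENSG00000167315, chr18:49782167-49813960), the thiolase that closes each turn for medium and short chains, stood at 111, 109 and 103 CPM in shCTRL and at 87.1, 87.0 and 87.3 in shFITM2. The 3 knockdown libraries lay within 1 CPM of each other, and all were below the controls. The log2 fold change was -0.31 ± 0.07 in the group fit (edgeR, adjusted p = 0.00325), -0.18 ± 0.05 after GC adjustment (adjusted p = 0.0141) and -0.15 with the principal transcript (adjusted p = 0.0308). The GC-adjusted call was lost in 4 of 6 fits that left out 1 library, without the first shCTRL library or without any 1 of the shFITM2 libraries, with an adjusted p of up to 0.0654. ECHS1, the hydratase for short chains, stood at 210.3, 209 and 233 CPM against 242, 245 and 232. The groups overlapped and the group fit did not call it (0.14, adjusted p = 0.111). Its transcript is rich in GC, and after adjustment the levels were 267, 280.4 and 246 against 193, 200.1 and 198, a called change of -0.43 ± 0.05 (edgeR, adjusted p = 2.06e-05) that the principal transcript gave as -0.41. That call held in all 6 fits that left out 1 library.

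HADHA and HADHB encode the subunits of the trifunctional protein, which carries out the last 3 steps for long chains. Their RefSeq start sites face away from each other on chr2, HADHA at 26244632 on the minus strand and HADHB at 26244939 on the plus strand, with 306 bases between them. In the count table the gene spans overlap, chr2:26190635-26244726 for HADHA and chr2:26243170-26290468 for HADHB. HADHA (ENSG00000084754) stood at 163, 162 and 158 CPM in shCTRL and at 157, 159 and 163 in shFITM2. The groups covered nearly the same range, with a log2 fold change of -0.0083 ± 0.06 (adjusted p = 0.927), and no fit called it. HADHB stood at 78.9, 73.6 and 77.0 CPM against 64.0, 70.1 and 65.9, without overlap. It was called lower in the group fit (-0.20 ± 0.07, edgeR, adjusted p = 0.0422), a call lost without the first shCTRL library or any 1 of the shFITM2 libraries (adjusted p of up to 0.159), and had 0.02 with no call after GC adjustment (adjusted p = 0.864). The difference between the changes of the 2 subunits was not tested.

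For unsaturated chains, ECI1 shifts double bonds in mitochondria and DECR1 reduces conjugated ones. ECI1 stood at 42.1, 40.5 and 45.1 CPM in shCTRL and at 73.9, 74.1 and 66.3 in shFITM2. Its groups were far apart, and its group fit change of 0.75 ± 0.08 (SE; edgeR, adjusted p = 7.37e-05) was the highest of all tested members, but after GC adjustment it was 0.13 with no call (adjusted p = 0.183). DECR1 stood at 18.4 to 22.3 CPM against 18.3 to 19.2 and was called in no fit. ECI2 was at 0.265 to 0.433 CPM in shCTRL and 0.177 to 0.46 in shFITM2.

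The electron transfer flavoprotein consists of the subunits ETFA and ETFB, and its dehydrogenase ETFDH passes the electrons on to ubiquinone. ETFB (ENSG00000105379, chr19:51345169-51366418) stood at 56.9, 55.8 and 52.3 CPM in shCTRL and at 93.8, 94.4 and 79.3 in shFITM2. The groups did not overlap, and ETFB was called higher in the group fit at 0.70 ± 0.09 (SE; edgeR, adjusted p = 0.00013) and in the GC-adjusted fit at 0.68 ± 0.07 (adjusted p = 7.79e-06). The second value rests on which transcript sets the GC content. The longest coding transcript has 3551 bases and 48.8% GC, the principal one 900 bases and 62% GC, and with the latter the change was 0.06 ± 0.12 with no call (adjusted p = 0.763). ETFA stood at 233.0, 242 and 234 CPM against 207, 203 and 204, without overlap. It was called lower in the group fit (-0.21 ± 0.06, edgeR, adjusted p = 0.0146), a call lost without any 1 of the shFITM2 libraries (adjusted p of up to 0.0743), and had 0.00074 after GC adjustment. ETFDH stood at 10.97 to 12.1 CPM against 9.67 to 13.3, with overlapping groups and no call in any fit. Reads of ETFDH may include those of PPID and C4orf46, which overlap its exons on the opposite strand, since no source used here gives the strand setting of the counting.

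In peroxisomal oxidation, ABCD3 (ENSG00000117528, chr1:94418455-94518666), a membrane transporter that brings in long and branched acyl-CoA, stood at 169, 176 and 139 CPM in shCTRL and at 107, 121 and 123 in shFITM2. Every control was above every knockdown library, and the group fit gave -0.46 ± 0.09 (SE; edgeR, adjusted p = 0.00201). After GC adjustment the change was -0.04 (adjusted p = 0.668). ACOX3 (ENSG00000087008, chr4:8366282-8440723), an acyl-CoA oxidase for branched chains, stood at 9.43, 8.93 and 10.6 CPM against 13.0, 12.7 and 11.2. These low levels did not overlap, and the group fit called ACOX3 higher (0.35 ± 0.13, edgeR, adjusted p = 0.0388), a call that the GC-adjusted fit did not give (0.09, adjusted p = 0.604). The group fit call was lost without the first or the second shCTRL library and without the first or the second shFITM2 library, with an adjusted p of up to 0.141.

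HSD17B4, the multifunctional enzyme that hydrates and dehydrogenates very long and branched chains, stood at 184, 187 and 179 CPM in shCTRL and at 167, 168 and 168 in shFITM2. The knockdown libraries were all lower, without a call in the group fit (-0.13, adjusted p = 0.103), yet after adjustment for a transcript of 38.6% GC it was called higher (0.26, edgeR, adjusted p = 0.001). With the principal transcript, of 43.5% GC, the change was 0.11 with no call (adjusted p = 0.0789). EHHADH, its counterpart for straight and dicarboxylic chains, stood at 8.56 to 10.4 CPM against 7.73 to 8.68 and was called in no fit. ACAA1 (ENSG00000060971, chr3:38103129-38137242), the peroxisomal thiolase, stood at 60.8, 56.6 and 55.3 CPM against 74.9, 75.6 and 68.5, without overlap. It was called higher in the group fit at 0.34 ± 0.08 (edgeR, adjusted p = 0.00386) and in the GC-adjusted fit at 0.29 ± 0.06 (adjusted p = 0.00315). As for ETFB, this rested on the transcript: the longest has 4720 bases and 49.4% GC, and with the principal one, of 1785 bases and 58.5% GC, the change was -0.12 with no call (adjusted p = 0.275).

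Of the 8 peroxins, the group fit called 4 higher (PEX14, PEX6, PEX10 and PEX16) and 1 lower (PEX13). The GC-adjusted fit called none higher and 2 lower (PEX5 and PEX6). Over all tested genes the group fit called 24.2% higher and 24.5% lower, and the GC-adjusted fit 12.2% and 17.3%. With so few genes in the class, its counts are given as descriptions. PEX6 (ENSG00000124587, chr6:42963870-42979220), an ATPase that pulls the import receptor out of the membrane, was the single member whose call turned direction. It stood at 39.3, 35.2 and 42.9 CPM in shCTRL and at 57.1, 48.8 and 49.7 in shFITM2, without overlap, for 0.41 ± 0.10 (edgeR, adjusted p = 0.00554). After GC adjustment the levels were 51.5, 49.1 and 45.0 against 44.4, 39.1 and 41.6, also without overlap, for -0.22 ± 0.08 (adjusted p = 0.0387). That second call was kept without the third shCTRL or the first shFITM2 library and lost without any 1 of the others (adjusted p of up to 0.183), and the principal transcript gave -0.20 (adjusted p = 0.0537). PEX5, the receptor for most peroxisomal enzymes, stood at 47.7, 51.3 and 45.1 CPM against 49.7, 50.8 and 42.2, with overlapping groups and no call in the group fit. Its GC-adjusted change was -0.30 ± 0.09 (edgeR, adjusted p = 0.0182), a call kept without the third shCTRL or the second shFITM2 library and lost without any 1 of the others (adjusted p of up to 0.106), and -0.39 with the principal transcript (adjusted p = 0.00622).

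PEX16, which acts early in membrane formation, stood at 17.6, 18.0 and 24.7 CPM in shCTRL and at 34.4, 33.7 and 28.3 in shFITM2, with 0.68 ± 0.14 in the group fit and 0.08 after GC adjustment. PEX10, a ubiquitin ligase of the import machinery, stood at 19.9 to 21.5 CPM against 27.1 to 34.1, with 0.54 ± 0.11 and 0.02. RER1 covers 39.1% of the exon bases of PEX10 on the opposite strand and has a mean of 2033 reads against 451, so the reads of PEX10 are uncertain. PEX14, a docking protein of the import machinery, stood at 15.9 to 29.5 CPM against 31.6 to 34.7, with 0.60 ± 0.20 and -0.02, and DFFA covers 6.81% of its exon bases on the opposite strand. PEX13, its docking partner, stood at 40.1 to 46.7 CPM against 32.7 to 39.3, with -0.31 ± 0.10 and 0.10. The group fit call of PEX13 was kept without the third shCTRL or the first shFITM2 library and lost without any 1 of the others, and that of PEX14 was kept without the second or the third shCTRL library and lost without any 1 of the others, each with an adjusted p of up to 0.103. None of these 4 genes was called after GC adjustment. PEX3 and PEX19, which insert membrane proteins, were called in no fit, at 7.92 to 11.02 against 5.18 to 9.2 CPM for PEX3 and 50.4 to 68.8 against 58.8 to 65.7 for PEX19.

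Per kilobase of gene length, the members' control levels covered more than 3 orders of magnitude. ECHS1 had the highest, 134.5 ± 8.2 CPM per kilobase in shCTRL (SD, n = 3), and ACSL5 followed at 69.8 ± 4.3, apart from it by far more than the spread. ETFA (46.9), HADHA (36.7) and PPARG (34.0) came next, and ACADSB (0.816) and ECI2 (0.0807) were the lowest. HADHB stood at 17.9, ETFB at 8.43 and ETFDH at 2.55. PPARD and PPARA, at 6.09 and 6.07, did not differ beyond their spread. The median over the 37 members was 8.74 in shCTRL and 10.7 in shFITM2. The length counts the exons of all annotated transcripts together, 6526 bases for ETFB where its principal transcript has 900, so the order of members on this scale depends on that length.

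**Figure D4:**
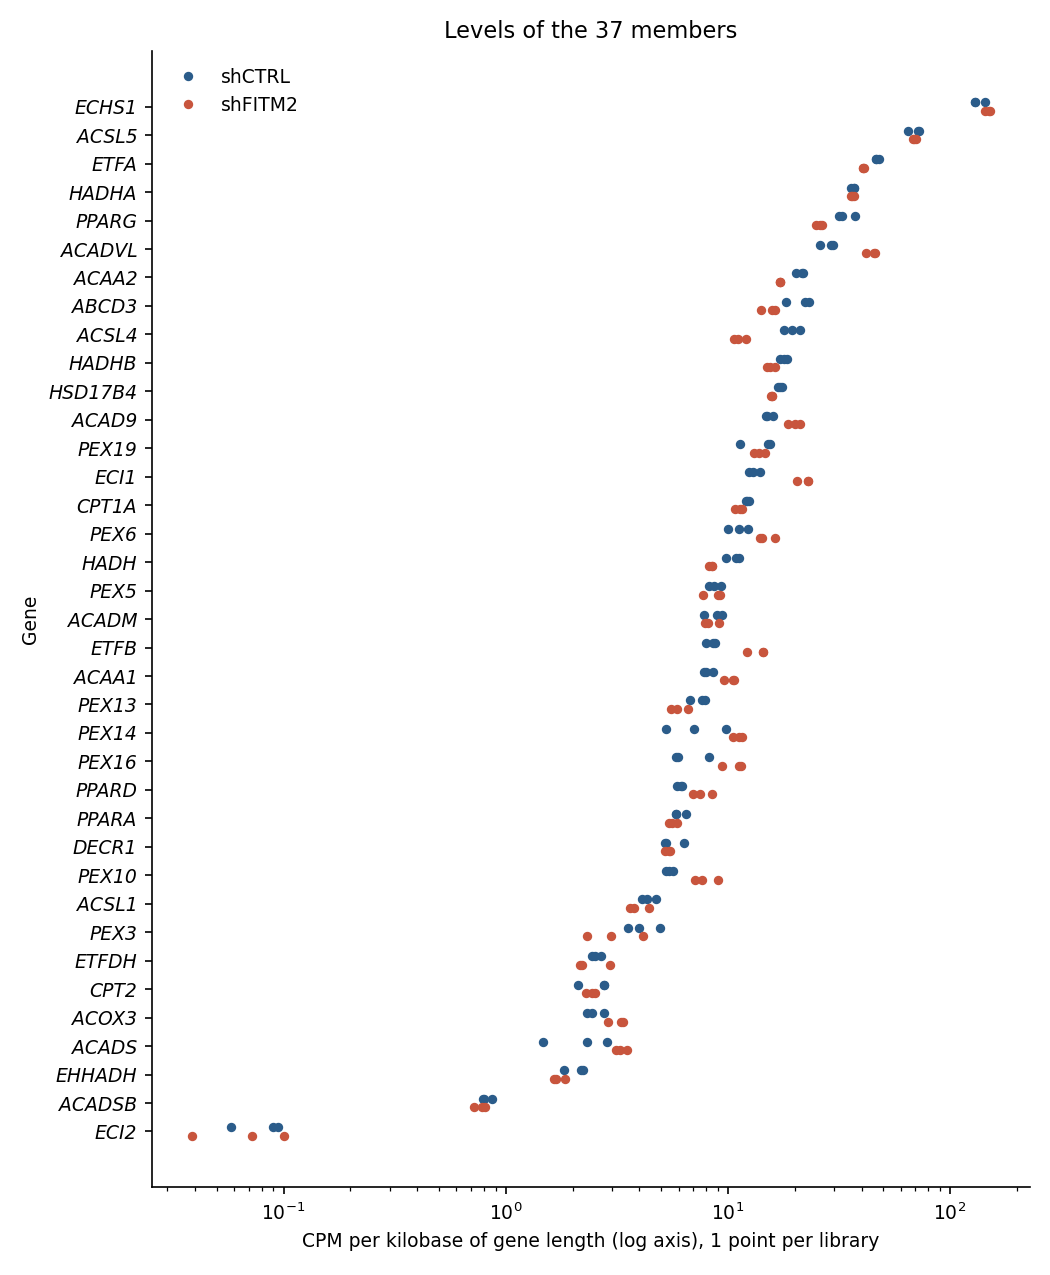
CPM per kilobase of gene length on a log axis for all 37 members, 1 point per library (shCTRL blue, shFITM2 red), ordered by the shCTRL mean. ECHS1 lies highest, with a mean of 134.5 in shCTRL, and ECI2 lowest at 0.0807, and the median member lies at 8.74 in shCTRL and 10.7 in shFITM2.

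Other genes of these pathways were read from 5 lists that hold 103 genes outside the members, of which 81 were tested. The group fit called 21 higher and 18 lower and the GC-adjusted fit 11 and 14, with 7 higher and 8 lower in both. Of all genes, 24.2% were called higher and 24.5% lower in the group fit, 12.2% and 17.3% in the GC-adjusted fit, and 8.25% and 10.2% in both, so these counts are near the background and the counts of the single lists are given as descriptions. The median log2 fold change of the 81 genes was -0.08 in the group fit and -0.01 after GC adjustment. Without the third shCTRL library, 29 of these genes were called lower in the group fit, which then called 9008 genes in all against 7205. In the GC-adjusted fit 6 or 7 were called higher without any 1 of the shFITM2 libraries. Without the first shCTRL library or any 1 of the shFITM2 libraries, 6 to 8 were called lower. Those GC-adjusted fits called 2889 to 3328 genes in all, against 4315 with all libraries. For each list, 3 or 4 of the 4 genes with the smallest p in the group fit are named.

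Of 20 further mitochondrial genes, 8 were called higher and 4 lower (7 and 4 after GC adjustment). ACSS1, which activates acetate in the matrix, stood at 119 ± 4.9 CPM in shCTRL (SD, n = 3) and 186 ± 2.7 in shFITM2, and was called higher in all 3 fits (0.64, 0.47 and 0.26). ACSF2, a medium-chain synthetase, stood at 37.9 ± 4.4 against 65.0 ± 2.0 CPM and was also called higher in all 3 fits (0.78, 0.39 and 0.39). ACSL3, a synthetase of the endoplasmic reticulum and lipid droplets, stood at 273 ± 25 against 186 ± 7.1 CPM and was called lower in all 3 (-0.55, -0.14 and -0.12). HSD17B10, a matrix dehydrogenase of branched-chain oxidation, stood at 42.9 ± 6.8 against 66.4 ± 3.7 CPM and was called higher in all 3 (0.63, 0.20 and 0.22). The GC-adjusted calls of ACSL3 and HSD17B10 were each lost without any 1 library except the third shCTRL library (adjusted p of up to 0.126 and 0.169), and those of ACSS1 and ACSF2 held in all 6 fits that left out 1 library.

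Of 32 further peroxisomal genes, 4 were called higher and 8 lower in the group fit, and 0 and 5 after GC adjustment. SLC27A2, which activates very long chains, stood at 30.8 ± 4.3 CPM in shCTRL (SD, n = 3) and 16.1 ± 0.98 in shFITM2. It was called lower in all 3 fits, at -0.94 ± 0.12 (SE), -0.96 and -0.94, with an adjusted p of 1.25e-05 after GC adjustment, and so changed little with the adjustment. FAR1 and AGPS act in ether lipid synthesis, FAR1 as the reductase that supplies fatty alcohol and AGPS as the enzyme that forms the ether bond. FAR1 stood at 204 ± 28 against 121 ± 5.7 CPM (-0.76, -0.18 and -0.24) and AGPS at 126 ± 15 against 80.8 ± 3.6 (-0.64, -0.20 and -0.19), both called lower in all 3 fits. The GC-adjusted call of AGPS was lost without the first shCTRL library or without the second or the third shFITM2 library (adjusted p of up to 0.114).

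Among 16 targets, partners and coactivators of PPAR receptors, 4 were called higher and 2 lower (2 and 3 after GC adjustment). TXNIP, an inhibitor of thioredoxin, stood at 76.1 ± 6.1 CPM in shCTRL (SD, n = 3) and 108 ± 5.5 in shFITM2 and was called higher in all 3 fits (0.51, 0.71 and 0.73). PPARGC1B, a coactivator of mitochondrial genes, stood at 14.5 ± 1.1 against 10.2 ± 0.80 CPM and was called lower in all 3 (-0.51, -0.62 and -0.59). For both, the change was larger after GC adjustment than before. ESRRA, an orphan receptor of mitochondrial genes, and RXRA, the dimer partner of PPAR receptors, were called higher in the group fit (0.69 and 0.53) and not after GC adjustment (-0.01 and -0.04), and RXRA was called lower at -0.14 with the principal transcript.

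Of 6 ketone body genes, 3 were called higher and 1 lower, and 1 and 0 after GC adjustment. ACAT1, the mitochondrial acetoacetyl-CoA thiolase (-0.44), AACS, which activates acetoacetate in the cytosol (0.27), and BDH1, hydroxybutyrate dehydrogenase (0.25), were called in the group fit and not after GC adjustment (-0.17, 0.06 and -0.13). The group fit call of AACS was lost without the first shCTRL or the second shFITM2 library, and that of BDH1 without the first or the second shFITM2 library. Of 11 genes of malonyl-CoA and AMPK control, 2 were called higher and 4 lower, and 1 and 3 after GC adjustment. STK11, the kinase that activates AMPK, stood at 53.4 ± 15 CPM in shCTRL (SD, n = 3) against 107 ± 2.9 and was called higher in all 3 fits (1.01, 0.23 and 0.36). PRKAG2, a regulatory subunit of AMPK, stood at 31.3 ± 2.9 against 24.3 ± 1.4 CPM and was called lower in all 3 (-0.37, -0.29 and -0.27). Its group fit call was lost without the first shFITM2 library, and its GC-adjusted call without the first shCTRL library or without the first or the second shFITM2 library. The GC-adjusted call of STK11 was lost without the third shFITM2 library. PRKAA1, a catalytic subunit (-0.56), and the deacetylase SIRT1 (-0.39) were called lower in the group fit and not after GC adjustment (-0.07 and -0.05).

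In all, 59% of tested genes had CPM ranges that did not overlap between the groups, 29.1% higher and 29.9% lower, and 22 of 36 members did, 12 higher and 10 lower. Members with the same outcome in all 3 fits were PPARG, ACSL4, HADH and ACAA2, called lower, and 10 that were called in none: PPARA, ACSL1, CPT2, ACADSB, HADHA, DECR1, ETFDH, EHHADH, PEX3 and PEX19. No member was called higher in all 3, and the share of all genes called alike in all 3 was not counted. For PPARG, ACSL4 and ACAA2 both adjusted fits used the same transcript or nearly the same GC content, so they are no separate checks. In both the group and the principal-transcript fit, 1159 of 14635 genes were called higher and 1470 lower. Beside these stood 1 and 4 of 36 members, so the counts are given as descriptions.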

How the data were processed

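The authors deposited 1 table of raw read counts per gene for 6 HT29 libraries, made from Trizol-extracted RNA with a directional NEBNext Ultra kit, per the labels' protocols. Tools listed in the submitters' processing notes, with no role given, are featureCounts 1.5.0-p3, HISAT2 2.0.5, DESeq2 1.16.1 and StringTie 1.3.3b, and the build listed is hg19. The positions in the deposited table, for all 58735 genes with an Ensembl identifier, are those of GENCODE 29 on GRCh38, and positions in the text are on that build. No source used here gives the strand setting or the treatment of reads with several matches. Gene length in bases, another column of the deposited table, served for levels per kilobase.

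Counts were tested in edgeR 4.0.16 (R 4.3.3; TMM scaling, robust quasi-likelihood F-test with group as the only term). Genes passed filterByExpr at a minimum count of 10 and total of 15, and p-values were adjusted by Benjamini-Hochberg over all tested genes and called at 0.05. For the GC-adjusted fit, an offset was entered per gene and library, taken from a spline (df = 6) of log2 deviations against transcript GC content. Scripts were tested on simulated counts. Alternatives used DESeq2 1.42.0, limma 3.58.1, other scalings and filters, a replicate block, a length offset and leaving out each library. Members and lists were chosen with earlier results of these data known, and the members shown library by library were those called alike in both fits, those whose call turned, and PPARG, CPT1A, ACADVL, HADHA, ACOX3 and ABCD3, and others were added after their values were seen. The AGGTCA repeat was planned, and the other motifs were added later. Protein targeting signals were not analysed here. Of each pathway list, the 4 genes outside the members with the smallest group fit p were to be named, and a few results are not reported here. Libraries of 1 group differed by more than sampling noise. Deviations of same-numbered libraries were uncorrelated (r = -0.041, -0.0066 and -0.065). These values show no pairing by number, but with 3 libraries in each group they cannot exclude it.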

Additional observations from a re-analysis of the deposited data

How the results depend on the processing

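FITM2 kept its direction and its call in all settings run, from -1.225 to -1.002 with 1 library left out. The number of genes called in the group fit went from 5338 to 9008 with 1 library left out (members 8 to 13 higher and 5 to 11 lower, other pathway genes 16 to 26 higher and 13 to 29 lower). In the GC-adjusted fit it went from 2889 to 5643 (members 4 to 7 and 3 to 9, other pathway genes 6 to 15 and 6 to 19). At an adjusted p under 0.01, 5 members were called lower and 13 other pathway genes higher in the group fit, where 4937 genes were called. The GC-adjusted fit at that threshold called 2620 genes, with 3 members higher and 3 lower and 7 other pathway genes each way. Against the group fit, the GC-adjusted fit called 4315 genes, 5 members higher and 11 other pathway genes higher. With the principal transcript 3 members were called higher. DESeq2 called 6870 genes and limma-voom 7421, with 11 and 12 members higher and 7 and 8 lower. Over all settings, 68 of the log2 fold changes of single genes reversed. Of those that kept their sign, 112 lost and 14 gained a call, and 1291 did neither. Calls lost or gained by reversed values are not in these numbers, and the threshold of 0.01 is among the settings. The cause of these shifts was not tested.

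Values that took the opposite sign in the GC-adjusted fit were PPARD -0.18, ACSL5 0.15, CPT2 0.32, ACADM 0.26, ACADS -0.15, ACADSB 0.30, HADHB 0.018, ECHS1 -0.43, DECR1 0.14, ETFA 0.00074, ETFDH 0.13, HSD17B4 0.26, EHHADH 0.0085, PEX13 0.10, PEX14 -0.015, PEX6 -0.22, PEX3 0.071, PEX19 0.11, ESRRA -0.013, RXRA -0.045 and BDH1 -0.13. Against that fit, the principal transcript reversed CPT2 to -0.22, HADHB to -0.014, ACAA1 to -0.12, PEX14 to 0.0022, PEX10 to -0.087, ESRRA to 0.0038 and AACS to -0.051, and a further length offset reversed ACSL1 to 0.0080 and ETFA to -0.00063. Dropping the filter on low counts turned ACSL5 to 0.00058, HADHA to 0.0030 and PEX19 to 0.0032 in the group fit, and limma-voom turned PEX19 to 0.0015. Leaving out 1 library crossed 0 in the group fit for ACSL5 (-0.069 to 0.012), PEX19 (-0.15 to 0.060), DECR1 (-0.12 to 0.024), PEX5 (-0.065 to 0.066), HADHA (-0.029 to 0.00023) and ETFDH (-0.23 to 0.017). In the GC-adjusted fit it did so for ACSL1 (-0.10 to 0.054), ETFA (-0.021 to 0.024), ESRRA (-0.11 to 0.045), HADHB (-0.031 to 0.055), PEX3 (-0.14 to 0.24), EHHADH (-0.044 to 0.059), PEX14 (-0.14 to 0.094), PEX10 (-0.064 to 0.058), PEX19 (-0.0066 to 0.17), ETFDH (-0.040 to 0.23) and PEX13 (-0.0088 to 0.18).

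The replicate number as a block called 6729 genes, with 11 members higher and 6 lower, and lost the calls of HADHB, ETFA, ACOX3 and BDH1 (adjusted p = 0.107, 0.0608, 0.0705 and 0.0517), while PEX19 came to 0.0028. With the GC offset and the block 4207 genes were called, and HSD17B10 had an adjusted p of 0.0546. Low reads limit ECI2, ACADS, ACADSB, EHHADH, PEX3 and ACOX3.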
